A study of Mus musculus with 21 samples.

Results

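Collagens are the structural proteins of the extracellular matrix, each built from alpha chains, and the chain genes were compared here between skin, liver and epididymal fat and between mice with and without JNK1. A gene was included when its name on the array was Col, a number, a and a number. This gave 44 of 27373 gene names, read by 87 of 41174 probes. The mice were male, of strain C57Bl6/J and 45 weeks old, and every group had been on high-fat food between weeks 5 and 44, so there was no group on a normal diet. Knockout (KO) mice lacked JNK1, the stress-activated kinase encoded by Mapk8, and wild-type (WT) mice were the controls. The labels named no promoter or Cre and did not say whether JNK1 was missing in the whole animal. Skin had 4 KO and 3 WT arrays, liver 3 and 3, and fat 4 and 4, all single-colour Agilent arrays of total RNA. The labels did not say whether each array was a separate mouse, so every p-value measures only the spread between these samples.

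In collagens, a glycine at regular spacing lets the chains wind into a triple helix, which hydroxylation of proline stabilises. Fibrillar chains (types I, II, III, V, XI, XXIV and XXVII) pack into the cross-striated fibres that bear tension, and type IV chains form the sheet-like networks of basement membranes under epithelia and around vessels and fat cells. The other chains make beaded filaments (VI), anchoring fibrils (VII), hexagonal networks (VIII and X), proteins that sit on fibril surfaces (the FACIT class), transmembrane proteins such as type XVII of the hemidesmosome, and multiplexins (XV and XVIII), whose C-terminal parts include endostatin. Fibroblasts make most fibrillar collagen of skin, stellate cells that of liver, and stromal cells and fat cells make the matrix of adipose tissue.

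Values are log2 spot intensity relative to the 75th percentile of each array, so that 0 is this percentile, and levels of different genes are not compared because probes differ in brightness. Between 38.9% (skin KO 1) and 57.2% (fat KO 2) of probes were well above background on the 20 arrays whose scanner file was used. The array number limits the precision, and no collagen spot was saturated. Mapk8 was lower in KO than in WT on every array of each tissue (fat difference -2.29, adjusted p = 0.00945, limma). In liver the Mapk8 difference was -2.37 (adjusted p = 0.217), and in skin it was not tested because 0 of 4 KO and 2 of 3 WT arrays had the probe well above background. The tissue labels held against their defining markers, with mean levels of 7.44 to 8.18 for 7 hepatocyte genes in liver, 6.42 to 7.63 for 8 keratinocyte genes in skin and 6.30 to 7.02 for 8 adipocyte genes in fat. Skin also held muscle RNA (8 skeletal muscle genes, 6.85 to 8.67) and adipocyte RNA (5.65 to 6.67). The scanner file of fat WT 2 went against its label, since its probes correlated with skin arrays at r from 0.860 to 0.912 and with fat arrays at r from 0.719 to 0.760. Its column in the authors' value table correlated with the other fat columns at r from 0.953 to 0.980, and that column, placed on the scanner scale, stands for fat WT 2 in all values below.

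Some probes of the array read the repeat of the helix itself. The following 3 probes of 60 bases show it, with each GGN glycine codon in capitals at a spacing of 9 bases (positions on mouse build mm9, spanning introns where longer than 60 bases).
Col11a2 probe, chr17:34189287-34189453, plus strand: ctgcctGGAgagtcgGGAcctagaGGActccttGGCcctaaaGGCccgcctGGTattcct
Col5a1 probe, chr2:27842243-27844666, plus strand: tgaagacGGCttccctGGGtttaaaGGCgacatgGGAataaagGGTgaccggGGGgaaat
Col5a3 probe, chr9:20590066-20590795, minus strand: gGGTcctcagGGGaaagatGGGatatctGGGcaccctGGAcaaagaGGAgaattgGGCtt
These hold 6, 6 and 7 GGN codons in 1 reading frame. Other collagen chains carry the same repeat, so related transcripts could in principle bind such probes, and whether they did was not tested. For none of the 3 genes was this probe the one used in the comparisons below.

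The 250 bases before the transcription start are shown for the genes on which the comparisons turn: chains of type I and III collagen, the type IV pair that lies head to head, the skin chain Col17a1 and the type VIII chains Col8a1 and Col8a2. They come from the RefSeq promoter table (build GRCm38.p6), which held 38 starts of 35 of the 44 genes, with the CCAAT motif, the TATAAA motif and the TGANTCA motif in capitals wherever they occur on either strand.
Col1a2, chr6:4505368-4505617, plus strand: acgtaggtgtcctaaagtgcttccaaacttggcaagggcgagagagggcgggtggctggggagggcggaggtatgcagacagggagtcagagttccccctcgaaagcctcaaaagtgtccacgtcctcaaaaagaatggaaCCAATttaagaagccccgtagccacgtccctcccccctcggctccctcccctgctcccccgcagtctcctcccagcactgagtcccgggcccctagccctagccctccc
Col3a1, chr1:45311288-45311537, plus strand: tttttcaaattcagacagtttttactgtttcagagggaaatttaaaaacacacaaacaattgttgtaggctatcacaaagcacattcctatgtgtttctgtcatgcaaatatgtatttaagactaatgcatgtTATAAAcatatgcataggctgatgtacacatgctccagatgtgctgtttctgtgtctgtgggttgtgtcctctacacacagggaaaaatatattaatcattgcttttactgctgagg
Col4a1, chr8:11312827-11313076, minus strand: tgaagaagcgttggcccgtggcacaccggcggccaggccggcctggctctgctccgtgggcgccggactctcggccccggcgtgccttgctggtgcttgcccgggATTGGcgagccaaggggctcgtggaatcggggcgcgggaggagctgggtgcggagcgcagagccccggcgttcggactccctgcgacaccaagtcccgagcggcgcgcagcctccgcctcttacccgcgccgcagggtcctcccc
Col4a2, chr8:11312555-11312804, plus strand: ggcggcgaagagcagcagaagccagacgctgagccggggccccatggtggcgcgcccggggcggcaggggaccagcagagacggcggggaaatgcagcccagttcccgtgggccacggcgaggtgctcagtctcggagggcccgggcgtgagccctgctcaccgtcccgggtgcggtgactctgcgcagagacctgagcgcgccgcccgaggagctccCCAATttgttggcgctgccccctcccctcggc
Col17a1, chr19:47692043-47692292, minus strand: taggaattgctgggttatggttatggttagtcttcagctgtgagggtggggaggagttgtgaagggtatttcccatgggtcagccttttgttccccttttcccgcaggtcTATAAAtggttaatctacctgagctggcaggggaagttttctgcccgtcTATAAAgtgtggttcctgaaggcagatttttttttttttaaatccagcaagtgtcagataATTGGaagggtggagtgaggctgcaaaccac
Col8a1, chr16:57754738-57754987, minus strand: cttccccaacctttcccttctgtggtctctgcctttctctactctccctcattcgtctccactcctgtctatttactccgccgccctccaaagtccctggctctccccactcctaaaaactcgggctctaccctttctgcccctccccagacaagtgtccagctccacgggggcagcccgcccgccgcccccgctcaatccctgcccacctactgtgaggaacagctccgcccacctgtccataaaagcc
Col8a2, chr4:126286544-126286793, plus strand: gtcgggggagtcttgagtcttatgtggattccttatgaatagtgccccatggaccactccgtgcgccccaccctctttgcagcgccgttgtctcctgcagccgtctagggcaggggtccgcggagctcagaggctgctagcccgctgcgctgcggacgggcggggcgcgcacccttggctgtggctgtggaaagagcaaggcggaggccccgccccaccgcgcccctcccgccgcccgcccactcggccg
Col1a2 held CCAAT 109 bases upstream of its start, Col3a1 TATAAA 117 bases upstream, and Col17a1 TATAAA at 91 and 140 bases. The windows of Col8a1 and Col8a2 held none of the 3 motifs. CCAAT occurred in 34.2% of the collagen windows and in 33.8% of 32851 windows of all genes, TATAAA in 13.2% and 12.4%, and TGANTCA, the letters bound by AP-1, the factor that JNK acts on through JUN, in 2.63% and 6.75%. The single TGANTCA lay 90 bases upstream of Col6a1. A match is a description of these letters only, and the motifs do not overlap one another.

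Of the 44 genes, 33 were tested, each in the tissues where 3 or more arrays showed its probe well above background: 27 in skin, 23 in liver and 28 in fat, with 19 in all 3. With the probe used, 15 genes were well above background on all 20 arrays, among them Col1a1, Col1a2, Col4a2, Col6a1, Col6a2, Col6a3 and Col7a1. No probe of 4 genes, Col4a5, Col10a1, Col24a1 and Col28a1, was well above background on any array. The other 7, Col4a3, Col9a1, Col9a3, Col11a2, Col19a1, Col20a1 and Col25a1, were above it on 1 or 2 arrays, and were not tested. The groups were not equal in how they let a gene in. Col11a1 was tested in skin only through 3 KO arrays. Col6a5, Col6a6 and Col26a1 entered only through fat, Col17a1 and Col22a1 only through skin and Col9a2 only through liver. For such genes the direction of a tissue difference partly follows from the filter.

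Among WT arrays, collagen genes were mostly higher in skin and fat than in liver, and the chains of the epidermal junction, Col7a1 and Col17a1, were highest in skin. Between skin and liver, 22 collagens were higher in skin and 5 lower, so 27 of 30 were called at an adjusted p below 0.05 (limma), against 65.1% of all genes tested (29.9% higher and 35.2% lower in skin). The median difference was 2.48 for collagens and -0.14 for all genes. Between liver and fat, 6 were higher in liver and 20 lower, 26 of 30 in all, against 64.3% of all genes (31.4% higher and 32.9% lower), with a median of -2.31 against -0.04. Between skin and fat, 10 were higher in skin and 3 lower, 13 of 32, against 60.5% of all genes (27.6% higher and 32.9% lower), with a median of 0.29 against -0.16. Quantile normalization of the arrays gave 10 higher and 8 lower in skin than fat and moved the median of all genes from -0.16 to -0.29. In whole tissue, fewer cells of a type and less RNA per cell cannot be told apart. Among the 19 genes tested in all 3 tissues, the order of WT means was fat, skin, liver for 9, skin, fat, liver for 7, liver, skin, fat for 2 and skin, liver, fat for 1.

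**Figure D1:**
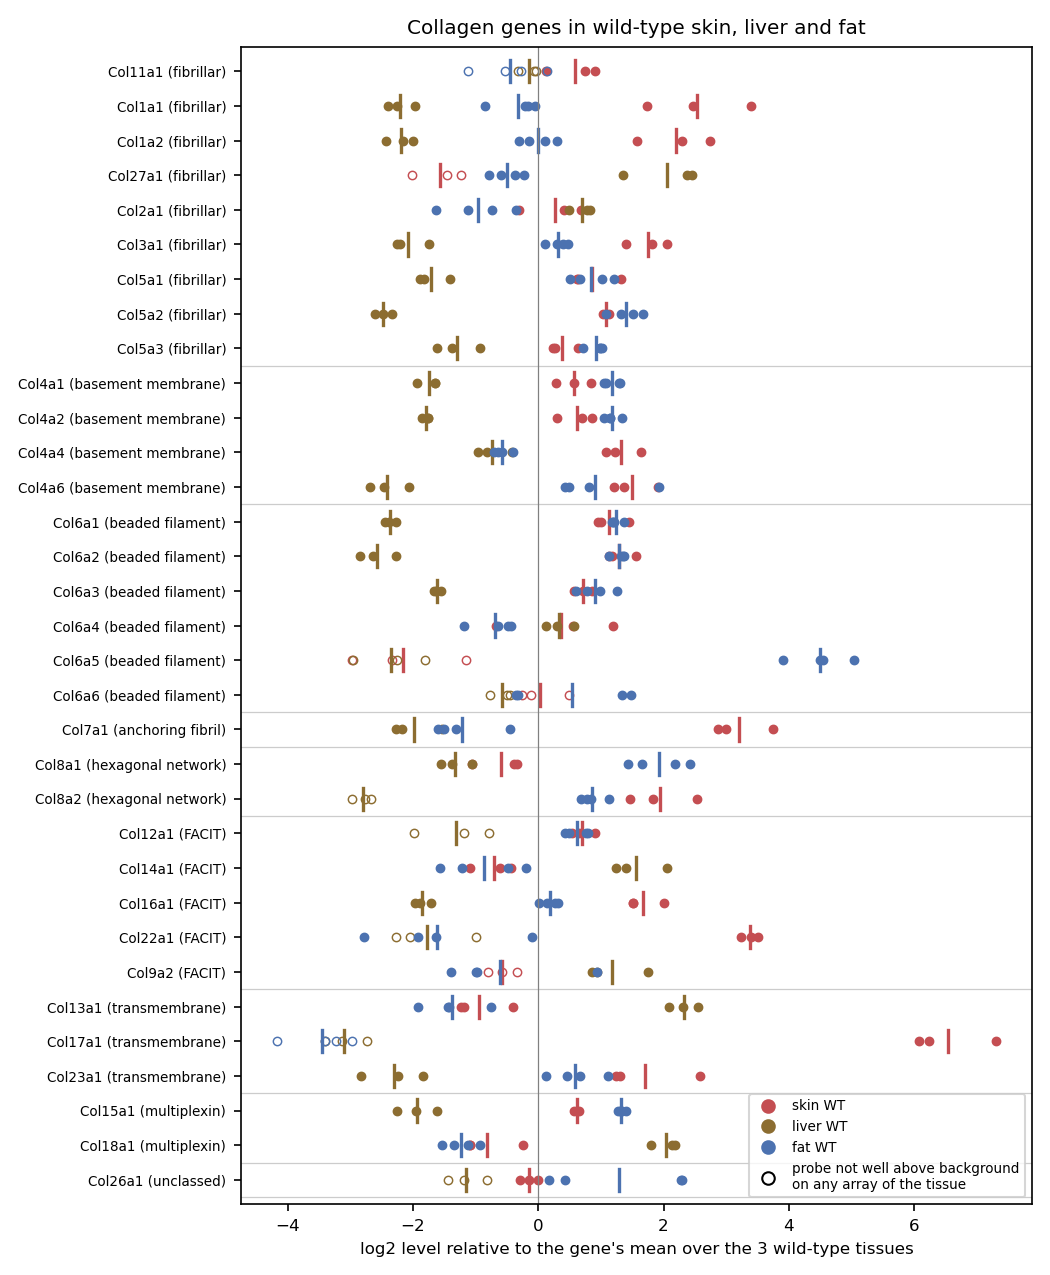
WT values of the 33 tested collagen genes on the log2 scale, each relative to the mean of its 3 tissue means, with 1 point per array and a bar at each tissue mean (skin red, liver brown, fat blue; open points mark a probe not well above background on any array of that tissue). Most genes have liver on the left, Col17a1 and Col7a1 stand far right in skin, Col6a5 in fat, and Col13a1, Col14a1, Col18a1 and Col27a1 in liver.

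The main fibrillar chains had the order skin, fat, liver with every step called. Col1a1, the alpha 1 chain of type I collagen, the main protein of dermis, read 7.75, 6.09 and 6.83 in WT skin, 4.19, 4.14, 3.50 and 4.31 in WT fat and 1.96, 2.39 and 2.10 in WT liver. The 3 tissues did not overlap. Its skin minus liver difference was 4.74 (SE 0.54, adjusted p = 3.73e-07), its skin minus fat difference 2.86 (SE 0.50, adjusted p = 0.000105) and its liver minus fat difference -1.89 (SE 0.50, adjusted p = 0.0031). Its other 2 probes gave 5.34 and 7.44 for skin minus liver. Col1a2, the partner chain of type I, averaged 8.60 ± 0.59 (SD, n = 3) in skin, 6.39 ± 0.27 (n = 4) in fat and 4.21 ± 0.22 (n = 3) in liver. Col3a1, the chain of the thin fibres of skin and vessels, averaged 6.94 ± 0.34, 5.50 ± 0.16 and 3.11 ± 0.28. Steps were smaller for Col3a1 between skin and fat (1.44, adjusted p = 0.000241) than between skin and liver (3.83, adjusted p = 3.32e-09).

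The type V chains, which set fibril diameter, did not pass the test between skin and fat, although every WT fat value of Col5a3 lay above every WT skin value. Col5a1 differed by 0.01 between skin and fat (95% interval -0.65 to 0.67, adjusted p = 0.981), Col5a2 by -0.31 (-0.90 to 0.28) and Col5a3 by -0.54 (-1.07 to -0.02, adjusted p = 0.0687). The other Col5a1 probe, printed above, gave 1.38 for skin minus fat and was well above background on 7 skin and 7 fat arrays. The other Col5a3 probe gave -0.05. All 3 type V chains were lower in liver, with differences of -2.56 for Col5a1, -3.86 for Col5a2 and -2.23 for Col5a3 relative to fat (adjusted p = 1.05e-06, 9.87e-10 and 3.39e-07). Col27a1, a fibrillar chain known from cartilage, ran the other way. It averaged -0.84 ± 0.61 in liver and -3.40 ± 0.25 in fat (liver minus fat 2.56, adjusted p = 6.16e-07), and was not well above background on any skin WT array. Liver was at least 7.33-fold higher than skin (measured means -0.84 and -4.47, adjusted p = 1.43e-08) and fat, where 2 of 3 scanner files measured it, at least 1.25-fold higher (adjusted p = 0.00525), a direction that turned under normexp background correction (skin minus fat 0.54). Col2a1, the main cartilage chain, was dim everywhere and higher in liver (1.67, adjusted p = 0.00777) and skin (1.23, adjusted p = 0.0442) than in fat. The skin call was lost in 14 of 27 alternatives (adjusted p up to 0.225).

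Basement membrane chains split. Col4a1 and Col4a2, which form the common type IV network, read 4.41, 4.12 and 3.84 and 4.22, 4.06 and 3.65 in WT skin. In WT fat they read 4.60, 4.85, 4.64 and 4.87 and 4.40, 4.50, 4.50 and 4.69, above every skin value. The skin minus fat differences were -0.62 (95% interval -1.17 to -0.06, adjusted p = 0.051) and -0.55 (-1.13 to 0.03, adjusted p = 0.0942), and neither passed the test. Both were lower in liver, with liver minus fat at -2.92 (adjusted p = 2.87e-08) and -2.96 (adjusted p = 2.83e-08). Col4a4, a chain of the minor networks, was instead highest in skin, by 2.05 over liver and 1.90 over fat (adjusted p = 2.6e-07 and 6.81e-07), and liver and fat did not differ beyond their spread (-0.15, -0.60 to 0.29). Col4a6, a chain of the basement membrane under epithelia and smooth muscle, differed by 3.90 between skin and liver by its chosen probe. In WT liver that probe was not well above background on any array, and another of its probes was on 2 of 3. The other probe gave 0.30 for skin minus liver, and was well above background on 2 skin and 4 liver arrays of both genotypes. By the chosen probe, skin and fat differed by 0.58 for Col4a6 (-0.54 to 1.70).

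The classical type VI chains make the beaded filaments around cells. With the probes used, these chains did not differ between skin and fat beyond their spread and were much lower in liver. Col6a1 averaged 3.86 ± 0.27 (SD, n = 3) in skin, 3.96 ± 0.09 (n = 4) in fat and 0.35 ± 0.09 (n = 3) in liver. The differences between skin and fat were -0.10 (95% interval -0.64 to 0.43) for Col6a1, -0.01 (-0.59 to 0.58) for Col6a2 and -0.19 (-0.85 to 0.48) for Col6a3. Skin minus liver was 3.50, 3.87 and 2.34 (adjusted p = 2.32e-09, 2.08e-09 and 7.74e-06). For skin minus fat, another probe of Col6a2 gave -0.81 and another of Col6a3 gave 0.78. Both were well above background on 7 skin and 7 fat arrays, so the likeness of skin and fat depended on the probe. Col6a5, a later added alpha 3-like chain, behaved differently, with 2.64, 2.10, 1.49 and 2.13 in WT fat and no skin or liver array well above background. Fat was at least 51.4-fold higher than skin (measured means 2.09 and -4.56, adjusted p = 3.85e-10) and at least 100.3-fold higher than liver (measured mean -4.75, adjusted p = 9.48e-11). Its neighbours on chromosome 9, Col6a4 and Col6a6, lie 27854 and 27823 bases away on the same strand. For Col6a6 the differences of skin and of liver from fat were not called (-0.50 and -1.11, adjusted p = 0.504 and 0.13), and for Col6a4 liver minus fat was 1.02 (adjusted p = 0.066). The other Col6a4 probe went the opposite way, with liver minus fat at -1.69 and skin minus fat at -1.10. It was well above background on 6 fat arrays and on no skin or liver array.

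The anchoring chains of the epidermis were skin genes. Col17a1, the transmembrane collagen that holds basal keratinocytes in the hemidesmosome, read 5.14, 3.91 and 4.06 in WT skin, and no liver or fat array had a probe of it well above background. Skin was at least 493.1-fold higher than liver (measured means 4.37 and -5.26, adjusted p = 1.77e-12) and at least 648.5-fold higher than fat (measured mean -5.61, adjusted p = 7.87e-13). Col7a1, the anchoring fibril that ties this membrane to the dermis, read 3.81, 2.93 and 3.06 in skin, -0.38, -1.55, -1.25 and -1.44 in fat and -2.21, -1.48 and -2.11 in liver. Its skin differences were 5.20 from liver and 4.42 from fat (adjusted p = 6.45e-10 and 6.2e-09), and fat and liver did not pass the test (-0.77, adjusted p = 0.0556). Col23a1, another transmembrane chain, was at least 12.8-fold higher in skin than in liver (adjusted p = 0.000166) and at least 5.92-fold higher in fat than in liver (adjusted p = 0.00177).

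Col8a1 and Col8a2, which form hexagonal networks, had different tissues at the top. Col8a1 read 3.19, 4.17, 3.41 and 3.95 in WT fat, 0.70, 1.37 and 1.42 in skin and 0.70, 0.20 and 0.38 in liver, so fat stood clear of both. Skin minus fat was -2.52 (adjusted p = 8.89e-07), liver minus fat -3.25 (adjusted p = 1.51e-08), and skin exceeded liver by 0.74 (adjusted p = 0.0438), a call lost in 10 of 24 alternatives (adjusted p up to 0.165). Col8a2 was 1.09 higher in skin than in fat (adjusted p = 0.00586) and was not well above background in liver, where skin was at least 15.1-fold and fat at least 7.08-fold higher (adjusted p = 5.96e-10 and 8.24e-09).

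The FACIT chains, which bridge fibrils to their surroundings, had no common tissue. Col16a1 ran skin, fat, liver (skin minus fat 1.49, adjusted p = 5.27e-05, and skin minus liver 3.53, adjusted p = 1.34e-09). Col22a1, found at tissue junctions such as that of muscle and tendon, was at least 29.3-fold higher in skin than in liver (adjusted p = 9.09e-07) and 4.99 higher than in fat (adjusted p = 1.15e-06), where 1 of 3 WT arrays measured it. Skin is also the tissue that held skeletal muscle RNA, and the part of it in Col22a1 was not tested. Col12a1 did not differ between skin and fat beyond its spread (0.08, 95% interval -1.03 to 1.19). By its chosen probe it was lower in liver, with liver minus fat at -1.93 (adjusted p = 0.0037) and skin minus liver at 2.02 (adjusted p = 0.00439). That probe was not well above background on any WT liver array, and another was on 1 of 3. The other probe gave the opposite signs, 0.99 and -0.40, and was itself dim, well above background on 2 skin, 1 liver and 2 fat arrays. Col14a1 was highest in liver, by 2.43 over fat (adjusted p = 0.0047), with a skin minus liver difference of -2.27 (adjusted p = 0.0113). Col9a2, a cartilage chain, was at least 3.01-fold higher in liver than in skin (adjusted p = 0.00811), and liver minus fat was 1.79 (adjusted p = 0.00462). It was let in only through liver.

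Liver had collagens of its own. Col18a1, the heparan sulfate basement membrane collagen that carries endostatin, read 8.18, 8.22 and 7.84 in WT liver against 5.79, 4.94 and 4.95 in skin and 5.11, 4.51, 4.70 and 4.92 in fat. Liver minus fat was 3.27 (SE 0.22, adjusted p = 3.27e-10), skin minus liver -2.85 (adjusted p = 4.64e-09), and skin and fat did not pass the test (0.42, adjusted p = 0.104). Col15a1, the other multiplexin, ran the opposite way, with liver minus fat at -3.27 (adjusted p = 8.99e-08) and skin minus liver at 2.56 (adjusted p = 4.68e-06). Col13a1, a transmembrane collagen of cell junctions, averaged -0.18 ± 0.23 in liver, -3.44 ± 0.47 in skin and -3.88 ± 0.48 in fat, with liver minus fat at 3.70 (adjusted p = 9.88e-09) and skin minus liver at -3.26 (adjusted p = 1.27e-07). In WT skin that probe was not well above background on any array and another of its probes was on 1 of 3. The other probe gave 1.73 for liver minus fat and 0.64, the opposite sign, for skin minus liver. It was dim, well above background on 1 skin and 2 liver arrays. Col26a1 was dim and let in only through fat, and fat was at least 3.45-fold higher than liver (adjusted p = 0.00231).

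The tissues were also compared on the KO arrays, which are separate samples, in a fit that shared its estimate of spread with the WT arrays. They called 26 of 30 collagens between skin and liver, 25 of 32 between skin and fat and 25 of 30 between liver and fat, against 65.6%, 62.4% and 66.1% of all genes (28.9%, 24.9% and 31.2% higher and 36.7%, 37.6% and 34.9% lower in the first tissue named). Of the collagens called in WT, 25, 13 and 24 were also called in KO with the same sign, and none was called with opposite signs in any of the 3 pairs. Between skin and fat 12 genes were called in KO and not in WT. Lower in KO skin than in KO fat were Col4a1 (-1.07, adjusted p = 0.00193), Col4a2 (-0.98, adjusted p = 0.00272), Col5a3 (-1.40, adjusted p = 4.65e-05), Col5a1, Col6a1, Col6a2 and Col15a1, and higher were Col13a1, Col14a1, Col23a1, Col6a4 and Col11a1, the last of which was tested only through KO skin and whose probe used was not well above background on any fat array. The test of the difference between KO and WT in these values is given further on and passed for Col11a1 alone. Fat KO 4 read -3.81 for Col14a1 and -5.94 for Col23a1, below the other KO fat arrays (-0.23 to 0.45 and -2.31 to -1.66). The KO calls of these 2 genes were not repeated without that array. Of the 19 genes tested in all 3 tissues, the order of means was the same in KO and WT for 15, and the highest tissue for 17, with Col5a1 and Col5a2 as the exceptions. On the slides that held 2 tissues of 1 genotype, every collagen called kept its sign within the slide, for example 27 of 27 for skin minus liver in WT on slides 3 and 4. The genes were called with these same arrays, so this match was largely fixed in advance and is given as a description.

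Genes that fold, cut and cross-link collagen followed in part. Of enzymes and chaperones that modify and fold the chains, 10 of 17 were higher and 5 lower in skin than in liver, and 4 of 18 were higher and 10 lower in liver than in fat. The collagen chaperone Serpinh1 was 3.74 higher in skin than in liver and differed by -3.22 between liver and fat, while P4hb, a prolyl hydroxylase subunit that also serves other secreted proteins, differed by -2.59 and 2.61. All but 1 of the 8 cleavage and cross-linking genes tested were lower in liver than in fat, among them Loxl1 (-3.02), and Bmp1, the C-propeptide protease, was higher in liver (1.25). Of the laminins and other basement membrane partners, 12 of 14 were higher in skin than in liver, and the epidermal laminin chains Lama3 and Lamb3 were 3.86 and 4.74 higher in skin than in fat. Fibril-associated genes were lower in liver than in fat in 14 of 16 cases, with Sparc at -3.48 and Dpt at -4.54, and Fn1, a plasma protein made by hepatocytes, at 2.27. Of collagen receptors 6 of 7 were lower in liver than in fat, for example Ddr2 (-3.29), and of TGF-beta signals 6 of 10, for example Tgfb3 (-2.57). These lists were chosen with earlier results of these data known. The counts are of genes called in the direction named. Of all genes, 32.9% were called lower and 31.4% higher in liver than in fat, and 29.9% higher and 35.2% lower in skin than in liver.

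No collagen gene passed the threshold between KO and WT in any tissue when each tissue was fitted alone. In limma with Benjamini-Hochberg adjustment 0 of 27 were called in skin, 0 of 23 in liver and 0 of 28 in fat, against 0.0148%, 0.0225% and 0.00655% of all genes tested. At an unadjusted p below 0.05 there were 2, 0 and 5 collagens, against 7.87%, 6.04% and 11.5% of all genes. A p that misses the threshold does not show that the genotypes were alike, and the intervals of single genes often spanned more than 1 log2 unit. The differences nonetheless leaned to lower values in KO. In skin 23 of 27 were below 0 (60.6% of all genes), in liver 18 of 23 (51%) and in fat 19 of 28 (38.9%), with medians of -0.43, -0.25 and -0.14 against -0.10, -0.00 and 0.07 for all genes. The counts below 0 were 22 to 23, 17 to 20 and 18 to 20 under the scalings tried.

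**Figure D2:**
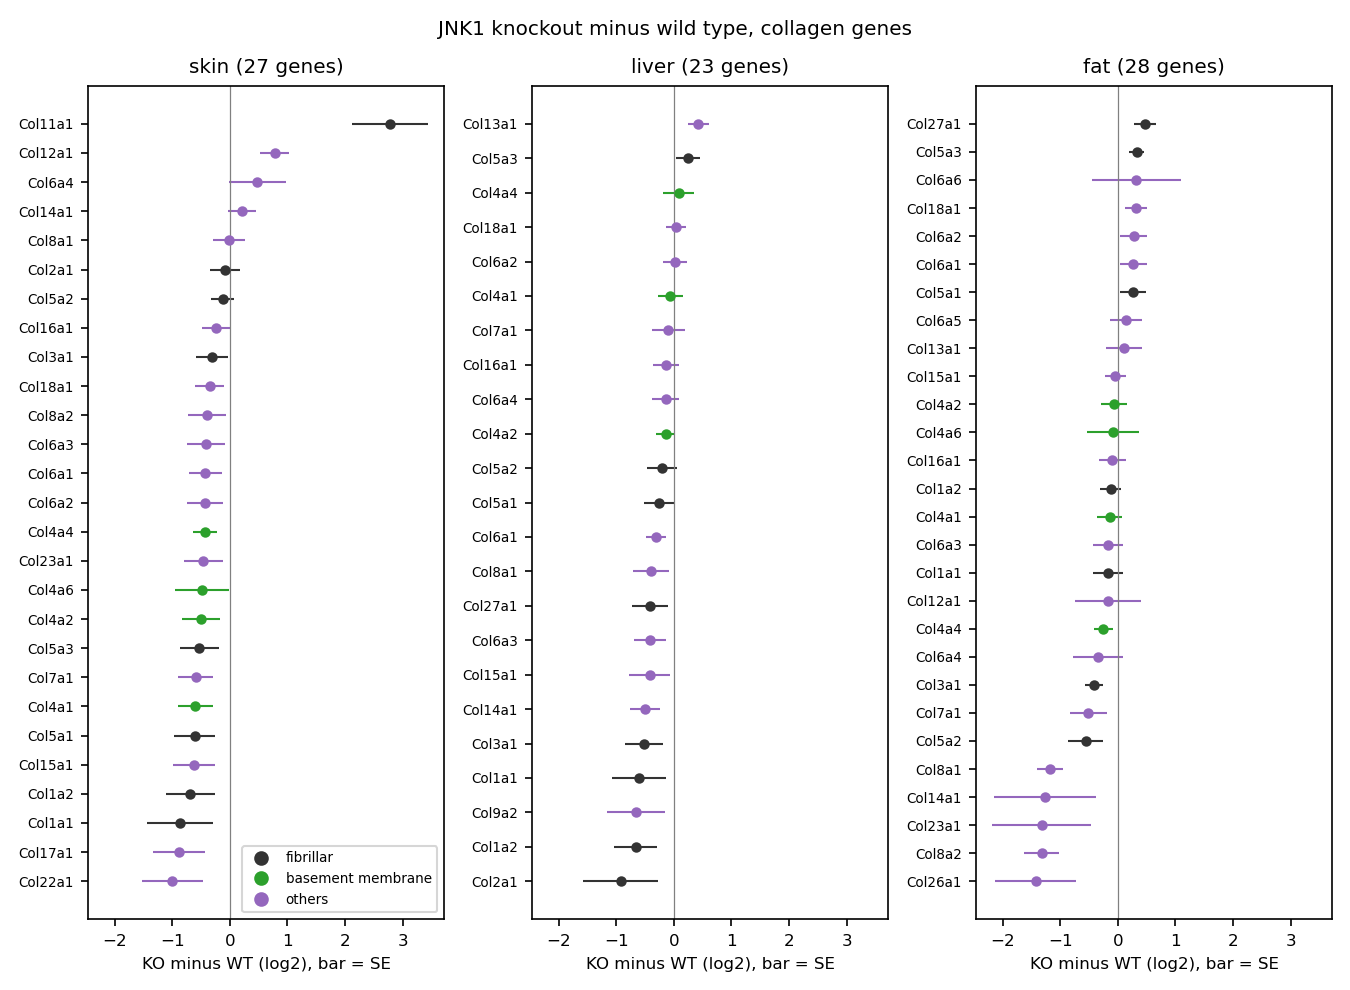
KO minus WT difference (log2) of each tested collagen gene in skin, liver and fat, with a bar of 1 SE either way (fibrillar black, basement membrane green, others purple). Most points lie left of 0 in skin and liver, Col11a1 stands apart on the right in skin at 2.78, and Col8a1 and Col8a2 lie at -1.18 and -1.32 in fat; none passed the threshold.

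Single arrays stood apart. Skin KO 1 was the lowest of the 7 skin arrays for 19 of 27 collagens (29.5% of all genes) and skin WT 1 the highest for 19, against 41.3% of all genes, and these arrays had the smallest share of probes well above background among the skin arrays of their genotype. Without both, the skin median was -0.08, and without 1 of them it was -0.24 (without KO 1) or -0.27 (without WT 1). Liver KO 3 was the lowest for 13 of 23 collagens (16.3% of all genes), and without it the liver median was -0.06. In fat, KO 1 was the lowest for 12 of 28 (20.8% of all genes) and KO 4 the highest for 13 (32.7%). The fat median was 0.01 without KO 1, -0.23 without KO 4 and -0.07 without WT 4.

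**Figure D3:**
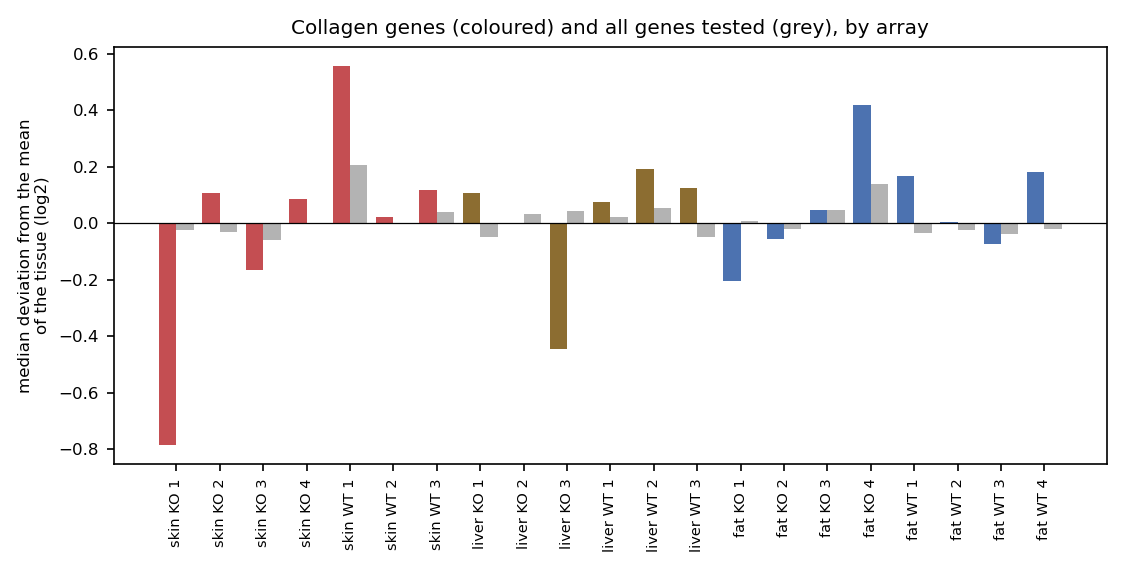
Median deviation (log2) of the tested collagen genes (coloured bars) and of all tested genes (grey bars) from the mean of all arrays of the same tissue, for each array. Skin KO 1 (-0.78), liver KO 3 (-0.44), fat KO 4 (0.42) and skin WT 1 (0.56) stand out for collagens, while all-gene bars stay between -0.06 and 0.21.

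In skin, Col11a1 had the largest difference. It encodes a minor fibrillar chain that nucleates thin fibrils with type II or type V collagen. It read -0.22, -2.03, -2.35 and -3.48 in KO 1 to 4 and -4.48, -4.64 and -5.27 in WT 1 to 3. All KO values lay above all WT values, and 3 of 4 KO arrays and 0 of 3 WT arrays were well above background, so on these arrays the KO mean was at least 3.25-fold higher (measured means -2.02 and -4.80, difference 2.78, SE 0.66, adjusted p = 0.281). Col11a1 entered the skin test only through these 3 KO arrays, so its direction and separation partly follow from the filter. Its other 2 probes, in the same gene, were not well above background on any skin array and differed by 0.42 and 0.12. With all arrays in 1 fit of 6 groups the adjusted p was 0.00387 (1% of all genes called), with slide as a random block in that fit 0.00495, with the array median as the scale 0.00807, and over all settings it ran from 0.00387 to 0.74.

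Col12a1, a FACIT chain of tendon and dermis, was the other skin gene with all KO arrays above WT. It read -1.17, -1.58, -1.46 and -2.08 in KO and -2.51, -2.40 and -2.14 in WT (0.78, SE 0.25, adjusted p = 0.555). A second Col12a1 probe, well above background on 2 skin arrays, differed by 0.77. The third, well above background on no skin array, differed by -0.03. Col4a4 and Col15a1 had all KO arrays below WT, at -0.43 (SE 0.21) and -0.61 (SE 0.36), with adjusted p = 0.555 for each. Thus 4 of 27 collagens had groups that did not overlap in skin (2 above and 2 below), against 11.5% of all genes (3.35% above and 8.15% below). Col11a1, 1 of the 2 above, was let in only through KO arrays.

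The main skin chains leaned lower with wide intervals. The differences were -0.86 (SE 0.57, 95% interval -2.17 to 0.44) for Col1a1, -0.69 (SE 0.42, -1.65 to 0.28) for Col1a2 and -0.31 (SE 0.28, -0.94 to 0.33) for Col3a1. Col1a1 read 4.66, 6.39, 6.05 and 7.01 in KO against 7.75, 6.09 and 6.83 in WT, so KO 1 lay lowest and WT 1 highest and the other arrays overlapped. The 4 basement membrane chains lay between -0.60 (Col4a1) and -0.43 (Col4a4), with Col4a2 at -0.50. The type VI chains lay close to each other, with Col6a1 at -0.43, Col6a2 at -0.43 and Col6a3 at -0.41. The junction chains Col7a1 and Col17a1 were at -0.59 (SE 0.30) and -0.88 (SE 0.45), and Col17a1 read 2.40, 3.63, 3.88 and 4.04 in KO. The lowest skin value was that of Col22a1, at -0.996 (SE 0.53). Col6a4 was at 0.48, Col14a1 at 0.22 and Col8a1 at -0.01. All of these had adjusted p from 0.555 to 0.983.

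Marker lists of other cells were set beside these values, and none of their genes passed the test in skin. All 8 hair follicle genes had higher values in KO, with a median difference of 4.01, a range of their mean level of 5.15 to 7.35 in KO and 1.61 to 3.85 in WT, 0 called and 8 at an unadjusted p below 0.05. All 8 skeletal muscle genes were lower (median -0.69), as were 7 of 8 endothelial genes (-0.69), 7 of 8 adipocyte genes (-0.60) and 5 of 5 smooth muscle genes (-0.48), with 0 called in these lists. Fibroblast markers were at -0.15, with 5 of 8 lower and mean levels of 3.48 to 3.99 in KO and 3.55 to 3.92 in WT. Of all genes tested in skin, 60.6% were below 0 and 7.87% had an unadjusted p below 0.05 (limma). The part of the marker genes in the collagen differences was not tested. No slide held skin or liver arrays of both genotypes, so slide and genotype cannot be told apart in these tissues.

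In liver the lowest value was that of the dim gene Col2a1 (-0.92, SE 0.65), Col9a2 was at -0.66 (SE 0.51), and no collagen passed the test. The highest t value was that of Col13a1, which read 0.31, 0.01 and 0.43 in KO and -0.19, 0.06 and -0.40 in WT (0.43, SE 0.19, adjusted p = 0.852). The lowest t value was that of Col14a1, at -0.50 (SE 0.26, adjusted p = 0.906). Col6a1 was the only liver collagen with groups that did not overlap, at 0.23, 0.13 and -0.25 in KO and 0.28, 0.34 and 0.45 in WT (-0.32, SE 0.17, adjusted p = 0.929), 1 of 23 against 11% of all genes (6.2% below and 4.81% above). The type I chains were at -0.61 (Col1a1, SE 0.47) and -0.66 (Col1a2, SE 0.37), and Col3a1 at -0.52 (SE 0.33). Col1a1 read 2.23, 2.02 and 0.37 in KO, of which KO 3 alone lay below the WT arrays. Col4a1, Col4a2, Col6a2, Col7a1 and Col18a1 lay between -0.14 and 0.04, Col6a3 at -0.42, Col4a4 at 0.09 and Col5a3 at 0.25. The liver arrays differed in muscle RNA, with a mean level of 8 skeletal muscle genes from -4.24 to 0.72 in KO and -4.39 to 0.58 in WT. Without KO 1, KO 2 and WT 3, the arrays highest in these genes and in keratinocyte genes, the median over liver collagens was -0.49 against -0.25. That left KO 3 as the only KO array, and the part of muscle RNA in these values was not tested beyond this. Markers of stellate cells, the main collagen source in liver, were at -0.24 (4 of 6 lower, against 51% of all genes).

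In fat the type VIII chains stood apart. Col8a1 read 2.35, 2.39, 2.48 and 2.80 in KO and 3.19, 4.17, 3.41 and 3.95 in WT. Every KO array lay below every WT array, at a difference of -1.18 (SE 0.23, 95% interval -1.70 to -0.65, adjusted p = 0.247). Col8a2 read -2.67, -2.36, -3.71 and -3.57 in KO and -1.77, -1.93, -1.83 and -1.48 in WT, also without overlap (-1.32, SE 0.31, -2.02 to -0.63, adjusted p = 0.283). Neither gene passed the threshold under any setting tried, with adjusted p from 0.0844 to 0.852 for Col8a1 and from 0.068 to 0.78 for Col8a2. On slide 3, the only slide with fat arrays of both genotypes, KO 2 minus WT 4 was -1.56 for Col8a1 and -0.88 for Col8a2. Both arrays are part of the comparison above, where the groups do not overlap, so the sign of any such pair was fixed. In the authors' deposited table Col8a1 had log2 values of 10.61 to 10.90 in KO and 11.44 to 12.39 in WT, and Col8a2 5.22 to 6.36 and 6.58 to 7.05. The windows before their starts, printed above, shared no motif of those searched.

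**Figure D4:**
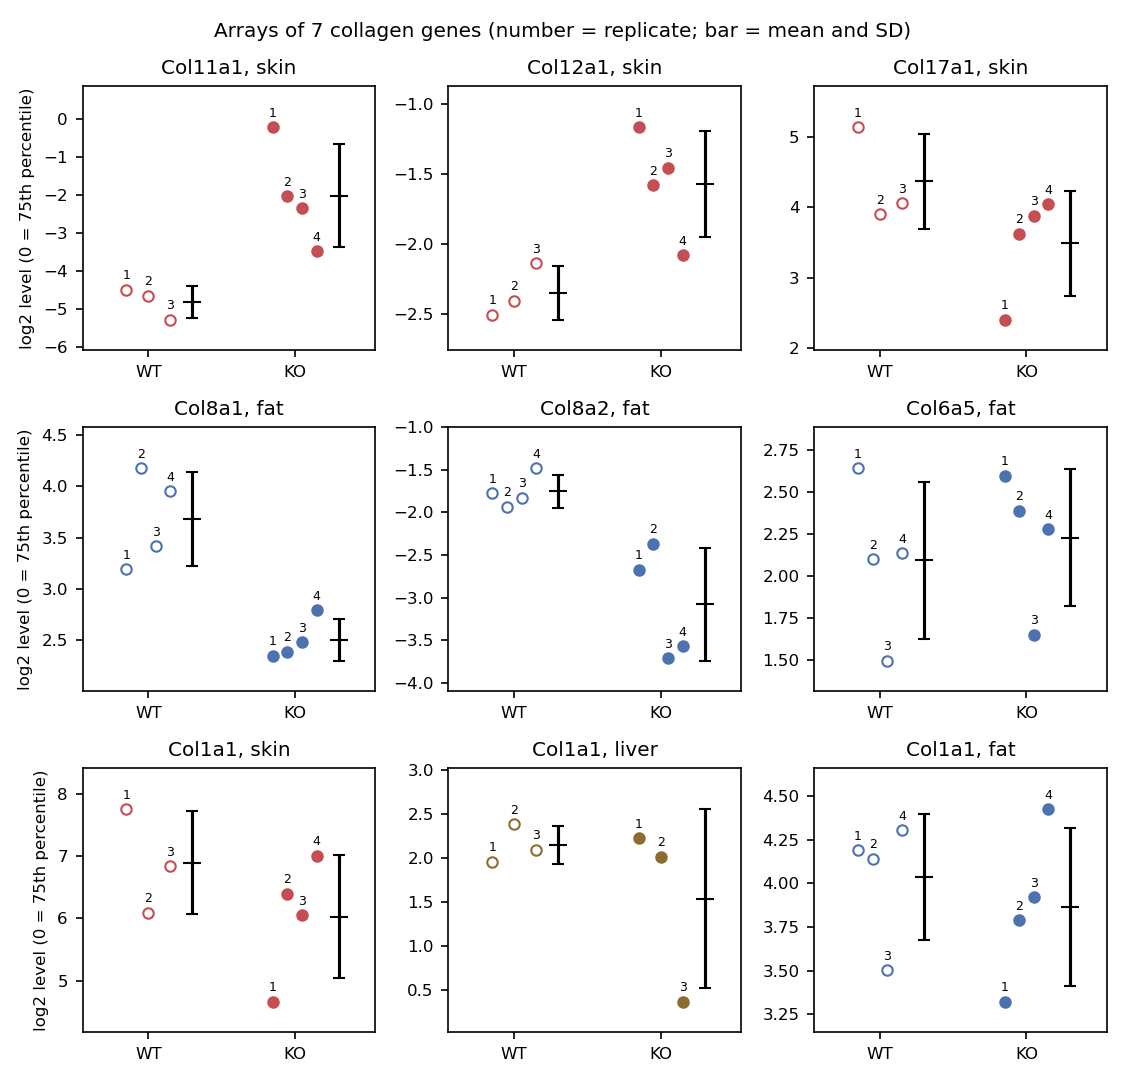
Log2 level (0 is the 75th percentile of the array) of 7 collagen genes on each array of WT (open) and KO (filled) in the tissue named, with the replicate number at each point and the mean and SD beside it. Col11a1 and Col12a1 in skin and Col8a1 and Col8a2 in fat have separate groups, and Col17a1, Col6a5 and Col1a1 overlap.

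Among the other fat collagens, Col5a3 read 4.69, 4.86, 4.95 and 4.92 in KO and 4.59, 4.59, 4.62 and 4.32 in WT, all KO values above WT (0.33, SE 0.12, adjusted p = 0.383). Col27a1 was at 0.48 (SE 0.19, adjusted p = 0.401) and on slide 3 at 0.45, and Col18a1 was at 0.31 (SE 0.19). Col3a1 was at -0.41 (SE 0.16, adjusted p = 0.397) from 3 KO arrays, since the spot of KO 4 carried an outlier flag, and its other 2 probes gave -0.12 and 0.49. In all 3 of 28 collagens had groups that did not overlap (2 below and 1 above), against 7.22% of all genes (2.17% below and 5.05% above). Col1a1 and Col1a2 were at -0.17 (SE 0.26) and -0.13 (SE 0.18), Col4a1 (3 KO arrays) and Col4a2 at -0.14 and -0.06, Col6a1, Col6a2 and Col6a3 at 0.27, 0.27 and -0.17, and Col7a1 at -0.51. Col6a5, the fat chain, read 2.59, 2.39, 1.65 and 2.28 in KO (0.14, SE 0.28, -0.50 to 0.77). Col26a1, Col23a1 and Col14a1 had larger values of -1.43, -1.32 and -1.26 with SE of 0.70, 0.85 and 0.89. On KO 4 Col23a1 read -5.94 and Col14a1 -3.81, below the other KO arrays (-2.31 to -1.66 and -0.23 to 0.45).

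In fat none of the marker genes passed the test either. All 6 macrophage genes tested had lower values in KO (median -0.61, mean level 0.77 to 2.69 in KO and 2.66 to 3.23 in WT), as were all 5 smooth muscle genes (median -0.81, 1.52 to 2.07 and 1.94 to 4.24). All 8 endothelial genes were higher (median 0.38, 2.51 to 3.05 and 2.17 to 2.62), 4 of 8 fibroblast markers were lower (median 0.07), and 0 were called in these lists. Of all genes tested in fat, 38.9% were below 0. The part of the cells that these lists mark in the Col8a1 and Col8a2 differences was not tested.

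Whether the KO effect itself differed between tissues was tested in 1 fit of all arrays. Col11a1 was the only collagen called, in skin minus fat (3.22, SE 0.68, adjusted p = 0.0354, 1 of 32 against 0.621% of all genes, with 6 at an unadjusted p below 0.05 against 14.8%), although its probe was not well above background on any fat array. It entered this test only through 3 skin KO arrays. The call was lost with normexp background correction, the authors' table, another filter on dim probes, the mean of all probes, slide as a fixed block or another treatment of fat WT 2, with adjusted p from 0.00296 to 0.375 over all settings, and also on leaving out skin KO 2 or 3, fat KO 1, 2 or 3, any skin WT array, or fat WT 1, 2 or 3 (adjusted p from 0.0515 to 0.114). In skin minus liver 0 of 30 were called (0.324% of all genes, 3 at an unadjusted p below 0.05 against 8.63%), with Col11a1 at 2.67 (adjusted p = 0.182), Col12a1 at 1.07 and Col2a1 at 0.83 as the highest t values and, as the lowest, Col17a1 at -1.41, Col5a3 at -0.78 and Col4a4 at -0.52 (adjusted p = 0.509, 0.57 and 0.634). In liver minus fat 0 of 30 were called (0.0438%, 2 at an unadjusted p below 0.05 against 5.63%), with Col8a2 at 1.45 (SE 0.44), Col23a1 at 2.03 and Col8a1 at 0.78 as the highest t values and, as the lowest, Col27a1 at -0.89 (adjusted p = 0.887), Col6a1 at -0.59 and Col5a1 at -0.52. The skin minus fat value of Col8a1 was 1.16 (SE 0.39, adjusted p = 0.21) and of Col26a1 2.11 (adjusted p = 0.281), and the lowest t values were those of Col5a3 at -0.85, Col18a1 at -0.66 and Col5a1 at -0.87 (adjusted p = 0.276, 0.315 and 0.345). The skin minus fat values of Col4a1 and Col4a2, -0.45 and -0.44, had adjusted p = 0.57 and 0.587.

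The genes that act on collagens were likewise not called between genotypes in any of the 6 lists and 3 tissues. In skin 15 of 16 modifying and folding genes were below 0 (median -0.36), among them the lysyl hydroxylases Plod1 (-0.58) and Plod3 (-0.50), as were 6 of 7 cleavage and cross-linking genes, with the propeptidase enhancer Pcolce at -0.62, and 11 of 13 basement membrane partners (median -0.41), with Lamb3 at -0.70. The matricellular Postn and the small proteoglycan Omd were at 1.79 (SE 0.70) and 1.20 (SE 0.46) in skin, with adjusted p = 0.555 for each. In liver Mrc2, an endocytic collagen receptor, was at -0.77 (SE 0.16, adjusted p = 0.36), Dpt at -0.73 (SE 0.21, adjusted p = 0.616) and the prolyl hydroxylase P4ha2 at 0.50 (SE 0.16, adjusted p = 0.691). In fat Bgn, a small proteoglycan of fibrils, was at -0.70 (SE 0.22, adjusted p = 0.321), Comp at -1.57 (SE 0.55, adjusted p = 0.36) and the collagen receptor Ddr2 at 0.40 (adjusted p = 0.406), and 14 of 18 modifying genes were above 0 (median 0.04). TGF-beta signals had 8 of 10, 7 of 10 and 6 of 10 below 0 in skin, liver and fat, with Tgfb3 at -0.62 in skin and 0.49 in fat. Of all genes tested, 60.6%, 51% and 38.9% were below 0 in skin, liver and fat. The skin counts of these lists include skin KO 1 and WT 1 and were not repeated without them.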

How the data were processed

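Total RNA of skin, liver and epididymal fat was hybridised to 21 single-colour Agilent arrays on 6 slides scanned on 1 day. The deposited scanner files hold the processed spot intensity of Agilent Feature Extraction 10.7.3.1, per the submitters' processing notes. The authors' deposited value table holds log2 values of the same arrays, whose normalization is not given in the sources used here, with column medians from 5.75 to 6.00. The scale was read from its correlation with log2 scanner values (r of at least 0.972 except for fat WT 2, 0.779).

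Log2 processed signal minus the 75th percentile of each array was used, without control spots and outlier flags. A gene was read by its probe with the highest mean and tested where 3 or more arrays had it well above background. Each tissue was fitted alone for KO against WT, and all arrays together for tissues and for differences between tissues, with limma 3.58.1 (R 4.3.3), a threshold of 0.05 and Benjamini-Hochberg adjustment over all genes. Fits were tested on simulated data. "At least" folds set the bright mean against the lowest signal well above background. Fat WT 2 was placed probe by probe from its table column, and the same step missed the scanner values of the other 7 fat arrays by a median of 0.055 to 0.186 per array and by up to 1.13.

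Named genes were all collagens called, the 3 highest and 3 lowest t values where fewer than 6 were called, 10 main chains, and of each list of other genes those called or up to 4 with the smallest p. The members and lists were chosen with earlier results of these data known. Alternatives were the scaling, background correction, authors' table, filter, probe choice, slide and replicate block, joint fit and leaving out arrays.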

Additional observations from a re-analysis of the deposited data

Results flagged for a closer look

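Some arrays stood apart from the others of their group, with a gap to the nearest array that was large against the range of the group (Dixon's test at its 95% level, which flags a small share of groups by chance). This held for 7 of 81 combinations of gene and group. Only skin KO, fat KO and fat WT entered, since groups of 3 arrays were not tested, so no array of liver or WT skin could be flagged. On fat KO 4, Col14a1 was low at -3.81 and Col23a1 at -5.94, while Col15a1 was high at 2.73 and Col18a1 at 5.54, so that 4 of the 7 lay on this array. The others were Col4a6 in skin KO 1 at -1.54, Col6a6 in fat KO 3 at -6.19 and Col5a3 in fat WT 4 at 4.32.

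The KO minus WT difference of Col11a1 was larger in skin than in fat by 3.22 (SE 0.68, adjusted p = 0.0354, limma, KO above WT in 4 of 4 skin KO arrays). The probe was not well above background in fat, and the gene entered the test only through 3 skin KO arrays.

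The scanner file of fat WT 2, not used in the comparisons, held skin collagens. Col17a1 read 3.99, Col1a1 6.49 and Col7a1 2.56 there, while Col6a5 read -2.52 against 1.49 to 2.64 on the other WT fat arrays.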

How the results depend on the processing

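No collagen was called between KO and WT in liver or fat under any setting, and the 0 called in skin became 1 (Col11a1) with median scaling, with 1 fit of 6 groups, and with slide as a random block in that fit, the last chosen after seeing the data. Leaving out each array in turn gave 0 in each tissue. With the replicate number as a replicate block, 0 were called in each tissue (medians -0.48, -0.25 and -0.11), and same-numbered arrays did not deviate together (r from -0.227 to 0.237). The KO effect in skin minus liver gave 1 call with quantile normalization and 0 to 1 on leaving out each array (1 without skin KO 4). The single call of the KO effect in skin minus fat became 0 with normexp, the authors' table, no filter, a strict filter, the mean of all probes, slide as a fixed block, and fat WT 2 left out or taken from its scanner file, and 0 to 1 on leaving out each array. The cause was not tested.

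The 13 collagens called between skin and fat in WT became 22 with normexp (16 higher and 6 lower), 25 on the KO arrays, and 12 to 18 on leaving out each array. Col27a1 turned from -1.07 to 0.54 with normexp. The counts between skin and liver and between liver and fat stayed at 26 to 27 and 26 to 28 on leaving out each array. The median KO minus WT difference in fat, -0.14, was -0.30 with slide as a fixed block, -0.32 with the scanner file of fat WT 2, and -0.23 to 0.012 on leaving out each array (0.012 without KO 1). Without KO 1 and KO 4, chosen after seeing the data, it was -0.19. On leaving out each array it ran from -0.55 to -0.24 in skin (-0.18 with no filter on dim probes) and from -0.35 to -0.06 in liver. Other scalings moved the median of all genes by up to 0.28 (normexp, skin minus fat) and -0.20 (median scaling, skin minus liver). Slide as a random block in liver alone could not be fitted. Dim probes near background limit Col11a1, Col23a1, Col26a1 and Col6a6.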

Other observations

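Chains of 1 trimer were read on the same arrays, so their correlation within a tissue shares the array and is given as a description. Each value was taken relative to the mean of its genotype in the tissue, so differences between KO and WT do not enter. Over the arrays of skin (7), liver (6) and fat (8), this r was 0.99, 0.88 and 0.88 for Col4a1 and Col4a2, which lie head to head on chromosome 8, and 0.96, 0.96 and 0.78 for Col1a1 and Col1a2. For Col6a1 and Col6a2 it was 0.97, -0.01 and 0.94, and for Col8a1 and Col8a2 0.01 in skin and -0.25 in fat. The median over all pairs of tested collagens was 0.52, 0.17 and 0.18.

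By Pearson's r over all 21 arrays, which fall into 3 tissues, the gene most like Col1a1 was Col1a2, followed by Ppm1j, Hspb2, Il34 and NAP120816-001. Within skin the closest 5 were Sema3b, Nr2f2, Ldb3, Wfdc3 and Dmpk, within liver Ccl7, AK021184, Cfd, Nabp1 and Bcl2l11, and within fat AK077774, Trib2, Jak2, Gosr2 and Yipf6.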
